A study of Rattus norvegicus with 241 samples.

Results

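The cells described here are mammary basal epithelial cells of peripubertal ACI rats that were sorted by flow cytometry and profiled by droplet single-cell RNA-seq, in which each captured transcript is counted once through its unique molecular identifier (UMI). They comprise all cells of the 6 ACI basal tables except those with at least 2 UMIs of SORBS2 and 1 UMI of PROCR. The study tied this pair of genes to a subset of its rare secretory basal cells in SD rats, and cells with both transcripts are not that population as a whole. The rule kept 9477 of the 9880 cells in these tables, out of 160052 cells in the 39 single-cell tables of the series. It left out 403 cells, with 157, 25 and 51 in vehicle-treated rats 7, 8 and 9 and 66, 69 and 35 in TGFBRi-treated rats 12, 15 and 16. The study counted far fewer secretory basal cells than this in ACI rats, most of them from treated animals. The share left out was highest in rat 7 (7.91%), with the most UMIs per cell, and lowest in rat 8 (1.11%), with the fewest. SORBS2 and PROCR levels were shaped by this rule and are not reported as results.

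All rats were virgin females of the inbred ACI strain (ACI/SegHsd), whose mammary glands form tumors under estrogen. TGFBRi is LY2157299 (galunisertib), a small-molecule inhibitor of the kinase of the TGFβ type I receptor TGFBR1. It was given by oral gavage at 75 mg/kg per dose, with 2 doses per day for 10 days. The 3 control rats received the vehicle in the same way, and the glands were taken on day 0, right after the last dose. Basal cells were live CD31-CD45- cells with CD24 and high CD29, and luminal cells (CD24 with low CD29) were sorted from the same 6 rats. Cells went into the sort fresh or after freezing, and which rats were handled in which way was not given, so that handling and treatment cannot be told apart. Other samples used for comparison were basal cells of outbred Sprague Dawley (SD) rats with the same dosing (3 vehicle, 6 TGFBRi), which were treated at a younger age than the ACI rats, and bulk RNA-seq of basal cells sorted from other young ACI rats (3 vehicle and 3 TGFBRi on day 0).

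Basal cells form the outer layer of mammary ducts. Most are myoepithelial: they make keratins 5 and 14, smooth muscle actin and myosin, contract in response to oxytocin to eject milk, and lay down the basement membrane. They also hold cells that can act as progenitors. TGFβ ligands are secreted in a latent form that integrins help to release, and bind TGFBR2, which activates TGFBR1. TGFBR1 phosphorylates SMAD2 and SMAD3, which enter the nucleus with SMAD4, raise matrix and cytoskeletal genes such as CCN2 and restrain growth of mammary epithelium. CCN2 is also a target of YAP, a transcriptional coactivator that responds to stretch and acts through TEAD factors.

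Each rat contributed 1140 to 2228 cells and 8038517 to 19177693 UMIs, with a median of 4235.5 (vehicle rat 8) to 9610 (vehicle rat 7) UMIs per cell. Correlations of log-scaled sums between rats were 0.983 to 0.988 within vehicle, 0.985 to 0.988 within TGFBRi and 0.963 to 0.979 between the groups. No pair of basal tables shared more than 2 cell barcodes, and Scrublet called 0.602 to 1.68% of cells per rat as doublets. Markers of other cell types differed between libraries. Their sums here are scaled by library size only. The TMM factors used for the comparisons below would raise the TGFBRi sums against the vehicle sums. The 10 fibroblast markers summed to 116, 27.2 and 4.48 CPM (the UMIs of a gene scaled to a common total per sample) in vehicle rats 7, 8 and 9 and to 69.02, 423 and 71.9 CPM in TGFBRi rats 12, 15 and 16, so that rat 15 stood apart. Of 5 erythrocyte markers, the 3 in the tables summed to 0.0970 to 0.498 CPM in vehicle rats and to 51.3, 0.464 and 48.1 CPM in TGFBRi rats 12, 15 and 16, with HBB-B1 at 0. Of 10 leukocyte markers, the 9 in the tables summed to 5.85 to 11.2 CPM in vehicle and 10.6 to 13.3 CPM in TGFBRi rats, with PTPRC, CD3E and CD52 at 0. The authors had removed cells with a PTPRC read and cells with few keratin reads, so keratin levels and the absence of PTPRC partly follow from that filter. Endothelial markers summed to 7.86 to 14.8 and 10.9 to 15.3 CPM, and the 7 luminal keratins and claudins to 583 to 981 and 848 to 878 CPM. Of 7 mature luminal markers, the 6 in the tables summed to 28, 15.0 and 11.9 CPM in vehicle and 39.8, 27.4 and 35.9 CPM in TGFBRi rats, and the 6 adipocyte markers to 5.32, 2.13 and 1.24 and to 8.92, 8.00 and 6.26 CPM, with RETN at 0. The 9 pericyte and vascular smooth muscle markers, which include genes of myoepithelial cells, summed to 9234 to 10360 and 6247 to 7133 CPM, with KCNJ8 at 0. Of the 4648 genes called between TGFBRi and vehicle below, 4590 were also called without cells holding more luminal than basal keratin UMIs (4688 calls). Without the cells of highest Scrublet score 4343 of them were called (4510 calls). The part of these other cells in the results below was otherwise not tested, except where values with a rat left out are given.

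The sorted cells carried the markers of their label. KRT14, a keratin of basal epithelium, was at 419 to 568 CPM in the 6 basal samples and at 0.176 to 1.05 CPM in the luminal samples of the same rats. KRT5, its partner in keratin filaments, was at 803 to 1243 CPM in basal and 0.351 to 2.73 CPM in luminal samples. TP63, the transcription factor that maintains basal epithelium, was at 88.5 to 206 CPM against 0 to 0.315 CPM, and the membrane peptidase MME (CD10) at 115 to 261 against 0.202 to 1.05 CPM. None of these 4 markers overlapped between the fractions. Before deposit the authors had removed cells that clustered with the other sorted fraction, which bears on this separation. Their log2 differences were 9.44 (SE 0.181) for KRT14, 9.30 (SE 0.351) for KRT5, 9.82 (SE 0.224) for TP63 and 7.79 (SE 0.172) for MME, all with an edgeR adjusted p of 1.7e-07 or smaller in a model with the rat as a block. After thinning each cell to 2000 UMIs, KRT5 had at least 1 UMI in 69.1 to 87.0% of basal cells per rat and in at most 0.824% of luminal cells. At full depth, 9473 of 9477 basal cells had a UMI of KRT14, KRT5, KRT17, ACTA2 or MYLK, as did 9.58 to 22.9% of luminal cells per rat. Between 11 and 47 cells per rat held more luminal than basal keratin UMIs.

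Of 15143 genes tested between basal and luminal cells, 5743 (37.9%) passed an adjusted p of 0.1 with a log2 difference of at least 1, of which 3073 (20.3%) were higher and 2670 (17.6%) lower in basal cells. Higher in basal cells were 21 of 22 contractile genes, 21 of 24 basement membrane genes, 32 of 36 interstitial matrix genes (1 lower), 15 of 19 YAP targets (2 lower), 19 of 30 Wnt pathway genes (5 lower) and 10 of 14 IGF axis genes (2 lower). All 11 milk genes tested and all 7 luminal keratins and claudins were lower. Of 15 TGFβ ligands and receptors 7 were higher and 4 lower, and of 34 TGFβ targets and feedback genes 18 were higher and 3 lower. The largest differences upward were IGFBP2, an IGF-binding protein, at 1713 to 3169 CPM in basal and 0.0737 to 1.05 CPM in luminal samples (log2 12.37), the membrane glycoprotein PDPN (11.74), the extracellular matrix protein RELN (11.61), the laminin chain LAMA1 (11.39), the collagen chain COL4A2 (11.11), TMEM200C (11.10), the teneurin TENM2 (11.07), the smooth muscle myosin MYH11 (11.06) and the desmosomal cadherin DSC3 (11.05). ARHGAP24, a GTPase-activating protein, had 1539 UMIs in basal cells and none in luminal cells, at least 592-fold higher when a floor of 3 UMIs is set for the 6 luminal samples together. On the luminal side, the uroplakin UPK3A, the monocarboxylate transporter SLC5A8 and the amino acid transporter SLC7A10 had no UMI in any basal sample, at least 499, 281 and 217-fold lower by the same floor set for the 6 basal samples. The removal of cells that clustered with the other sorted fraction also bears on these bounds. PRR27 (log2 -10.46), the stem cell factor receptor KIT (-10.27), the receptor tyrosine kinase ERBB4 (-10.22), the casein CSN1S2A (-10.02), GP2 (-9.89) and PLET1 (-9.85) were also among the 10 largest in that direction.

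Basal cells of TGFBRi rats differed from those of vehicle rats in many genes. With UMIs summed per rat and scaled by TMM factors, edgeR called 4648 of 13944 genes (33.3%) at an adjusted p of 0.1, of which 2157 (15.5%) were higher and 2491 (17.9%) lower with TGFBRi, and the 3 rats of one group did not overlap with the 3 of the other in 5768 genes (41.4%). The split of calls depended on the scaling and the tool. With library sizes only, 5841 genes were called, 1072 higher and 4769 lower, and the median log2 fold change of all genes moved from -0.036 to -0.257. With DESeq2, 3795 genes were called, 2100 higher and 1695 lower. The 15.5% and 17.9% of all genes are the background against which the counts of each gene list below are given, and a list near them does not stand apart from all genes. List counts with library sizes only belong beside the 1072 higher and 4769 lower of 13944 genes in that setting instead. There most calls over all genes were lower. Where no range is printed for a list, leaving out 1 rat moved its counts by at most 3 genes or 1.5 times. Fold changes below are TMM-scaled and CPM values are given in the order of vehicle rats 7, 8 and 9 and TGFBRi rats 12, 15 and 16.

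CCN2 (connective tissue growth factor), a secreted matricellular protein, had one of the largest falls. It was at 1258, 1873 and 1715 CPM in vehicle rats and at 381, 236 and 246 CPM in TGFBRi rats. Every TGFBRi rat lay under every vehicle rat, which the choice of the largest falls required. The log2 fold change was -2.49 (SE 0.224, edgeR adjusted p = 2.6e-04). KRT80, a keratin, fell further from a low level, with 3.42, 3.00 and 1.71 CPM in vehicle and 0.562, 0.244 and 0.414 CPM in TGFBRi rats (log2 -2.66, SE 0.422). FILIP1L, a filamin-interacting protein that restrains cell migration, was at 91.8, 112 and 120 CPM and at 29.7, 34.97 and 37.2 CPM (-1.67, SE 0.124, adjusted p = 1.3e-05). The potassium channel KCNJ2 (-1.91), the p53-binding protein PPP1R13B (-1.68), the membrane-anchored semaphorin SEMA7A (-1.77), the collagen galactosyltransferase COLGALT2 (-1.67), NIF3L1 (-1.81), UNK (-1.71) and the zinc finger genes ZKSCAN8 (-1.94), ZFP113 (-1.67) and ZFP37 (-1.64) made up the rest of the 12 largest falls. All 12 kept their call when any 1 rat was left out.

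A pair of genes went almost to 0. HS3ST6, a heparan sulfate sulfotransferase, had 62, 32 and 23 UMIs in vehicle rats and 0, 0 and 1 UMI in TGFBRi rats, a ratio of vehicle to TGFBRi per UMI of 85.7 (95% counting interval 15.1 to 3410). LMCD1, a LIM protein listed among TGFβ targets, had 17, 21 and 7 UMIs against 1, 0 and 1, a ratio of 16.5 (4.31 to 140). Both were called (adjusted p 7.4e-05 and 0.00273), and both intervals cover counting error only. With so few UMIs, HS3ST6 was seen in at most 0.771% of thinned cells of a rat. The fold of both genes is known at best within these wide bounds, which leave out the spread between rats. HS3ST6 and LMCD1 are taken up again in the comparisons with luminal cells and with SD rats.

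The 250 bases before the annotated start of CCN2, LMCD1, FILIP1L and HS3ST6 are shown, because these 4 genes had steep falls and the first pair is on lists of pathway targets. The sequences come from RefSeq on the rat build GRCr8, which is not the rn6 build the reads were aligned to, and each runs 5′ to 3′ on the strand of its gene. They lie at chr1:22624615-22624864 (minus strand) for Ccn2, chr4:146948743-146948992 (plus) for Lmcd1, chr11:56646403-56646652 (minus) for Filip1l and chr10:14286305-14286554 (plus) for Hs3st6. Capitals mark 3 motifs searched on both strands: GGAATG, the core bound by TEAD factors, CAGAC, a SMAD-binding core, and TGANTCA, bound by AP-1 factors.
Ccn2: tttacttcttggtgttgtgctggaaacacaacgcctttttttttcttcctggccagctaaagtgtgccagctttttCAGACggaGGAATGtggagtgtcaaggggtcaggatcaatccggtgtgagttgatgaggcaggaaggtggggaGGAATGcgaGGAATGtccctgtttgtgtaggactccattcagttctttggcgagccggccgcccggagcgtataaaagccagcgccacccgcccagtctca
Lmcd1: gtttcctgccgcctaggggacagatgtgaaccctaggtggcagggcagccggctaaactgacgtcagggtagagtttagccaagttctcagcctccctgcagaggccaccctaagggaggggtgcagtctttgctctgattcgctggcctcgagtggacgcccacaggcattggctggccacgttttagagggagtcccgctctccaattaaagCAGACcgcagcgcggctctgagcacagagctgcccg
Filip1l: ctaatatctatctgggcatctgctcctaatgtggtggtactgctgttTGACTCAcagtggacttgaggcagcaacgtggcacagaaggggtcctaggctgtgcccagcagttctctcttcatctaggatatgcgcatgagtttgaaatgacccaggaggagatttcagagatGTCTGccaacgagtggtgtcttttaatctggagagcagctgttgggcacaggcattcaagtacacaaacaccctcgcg
Hs3st6: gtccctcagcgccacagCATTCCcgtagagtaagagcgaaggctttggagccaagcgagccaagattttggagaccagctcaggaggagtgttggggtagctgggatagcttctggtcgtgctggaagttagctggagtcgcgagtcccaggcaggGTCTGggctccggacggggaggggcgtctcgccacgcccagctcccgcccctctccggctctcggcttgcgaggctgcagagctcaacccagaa
The Ccn2 window held GGAATG 3 times, the farthest starting 166 and the nearest 92 bases before the start, and CAGAC once, 174 bases before it. Of 27457 rat windows of this length, 11.8% held GGAATG at least once and 0.0911% at least 3 times. Lmcd1 held CAGAC once, at 36 bases. Filip1l held CAGAC (on the other strand, as GTCTG) at 78 bases and TGANTCA at 203 bases, and Hs3st6 held GGAATG at 233 and CAGAC at 94 bases, both on the other strand. CAGAC was in 42.8% and TGANTCA in 6.36% of all windows. A match describes the letters of the window and was not tested as a binding site. Among YAP targets that fell, 5 of the 6 with a window held GGAATG (Ccn1, Ccn2, Amotl2, Ajuba and Ptpn14), against 1 of 5 (Nuak2) among those not called and 0 of 2 among those that rose. Among TGFβ targets that fell GGAATG was in 3 of 11 (Ski, Ccn2 and Thbs1), against 0 of 13 not called. CAGAC was in 3 of 6 YAP targets and 4 of 11 TGFβ targets that fell. Among those not called it was in 2 of 5 and 4 of 13, and among those that rose in 1 of 2 and 1 of 3. These lists are short, and the counts were not tested.

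**Figure D1:**
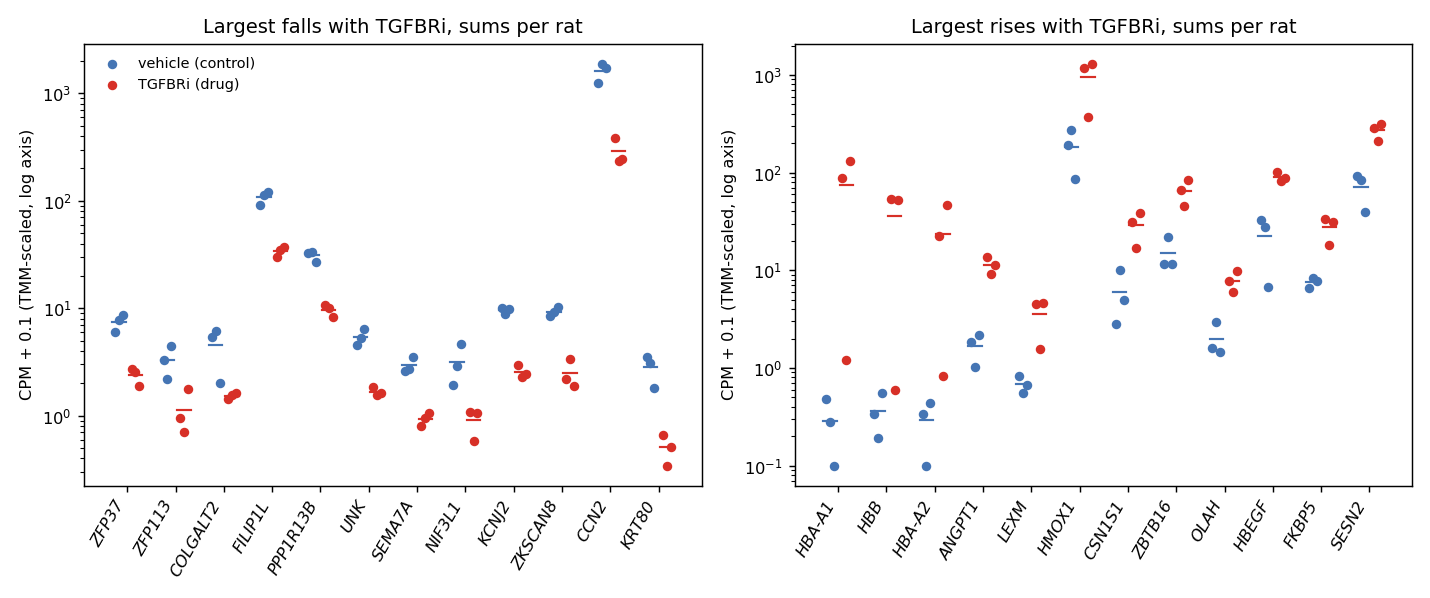
Levels of the 12 largest falls (left) and 12 largest rises (right) in basal cells, as TMM-scaled CPM plus 0.1 on a log axis, with 1 point per rat (3 vehicle, 3 TGFBRi) and a bar at the group mean. CCN2 goes from 1258 to 1873 CPM in vehicle rats to 236 to 381 CPM in TGFBRi rats, while the hemoglobin genes HBA-A1, HBB and HBA-A2 are high only in TGFBRi rats 12 and 16.

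The type I and type II receptors of TGFβ were not called. TGFBR1, the target of the inhibitor, was at 22.8, 20.5 and 24.2 CPM in vehicle and 23.6, 25.95 and 26.9 CPM in TGFBRi rats (log2 0.17, adjusted p = 0.293), and TGFBR2 at 24.3 to 33.97 and 27.8 to 36.5 CPM (0.089, adjusted p = 0.684). Nor were the ligands TGFB1 (0.26) and TGFB3 (0.18) called. These 4 genes were chosen after their values were seen. Of the 15 ligands and receptors tested, 3 rose and 3 fell (1 and 4 with library sizes only), 20% in each direction beside 15.5% and 17.9% of all genes. Without rat 12 2 were higher and 1 lower. INHBA, the activin A subunit, was at 1.74, 2.28 and 3.87 CPM and at 6.11, 4.75 and 4.41 CPM (1.05, adjusted p = 0.0161), and TGFB2 at 8.76 to 11.9 and 12.6 to 18.2 CPM (0.57, adjusted p = 0.0231). The call of TGFB2 was lost with library sizes only. The co-receptors ENG, at 75.02 to 106.5 and 61.9 to 68.1 CPM (-0.47), and TGFBR3, at 697 to 821 and 542 to 683 CPM (-0.36, a call kept in 4 of 6 fits without 1 rat), were lower in all TGFBRi rats than in any vehicle rat. Among all genes 41.4% did not overlap between the groups. The type I and type II activin receptors ACVR1B (0.32) and ACVR2A (-0.31) were the other calls. The list's median was 0.17, and -0.050 with library sizes only, beside -0.036 and -0.257 over all genes.

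Targets and feedback genes fell more often than they rose. Of 33 tested, 13 (39.4%) were lower and 4 higher, against 17.9% and 15.5% of all genes, and the list's median was -0.23. BHLHE40, a transcriptional repressor of the clock and of differentiation, was at 243, 233 and 230 CPM in vehicle and at 98.4, 92.96 and 97.5 CPM in TGFBRi rats (-1.29, SE 0.090, adjusted p = 1.1e-05). The values within each group were close, and the groups were far apart. SKI, a corepressor of SMADs, went from 65.3 to 83.9 CPM down to 41.4 to 44.4 CPM (-0.78, SE 0.111). SMAD4, the shared SMAD, was at 43.95 to 51.2 CPM in vehicle and at 24.9 to 32.1 CPM in TGFBRi rats (-0.74, SE 0.118). The integrin subunit ITGB6, part of the receptor that releases latent TGFβ, was at 253 to 280 and 168 to 190 CPM (-0.60, adjusted p = 7.1e-04), and THBS1, a matrix protein that activates latent TGFβ, at 2534 to 3021 and 1880 to 2309 CPM (-0.39). Chosen after their values were seen, the lower genes also held KANK4 (-0.73), JUNB (-0.55), the SMAD corepressor SKIL (-0.34) and the EMT factor SNAI2 (-0.33). The higher ones, also seen first, were the CDK inhibitor CDKN1A (0.82), the pseudoreceptor BAMBI (0.56), the corepressor TGIF1 (0.56) and SERTAD1 (0.52).

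Some well-known targets were not called. PMEPA1, a feedback inhibitor, was at 835 to 1053 and 678 to 938 CPM (-0.19), and SMAD7, the inhibitory SMAD, at 166 to 196 and 192 to 257 CPM (0.24). SMAD2 (-0.21) and SMAD3 (0.15) were also not called. These 4 genes were chosen after their values were seen. Of 11 genes of latent TGFβ binding and activation, LTBP4 rose (0.37, a call lost with library sizes only) and ITGB6 and THBS1 fell.

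**Figure D2:**
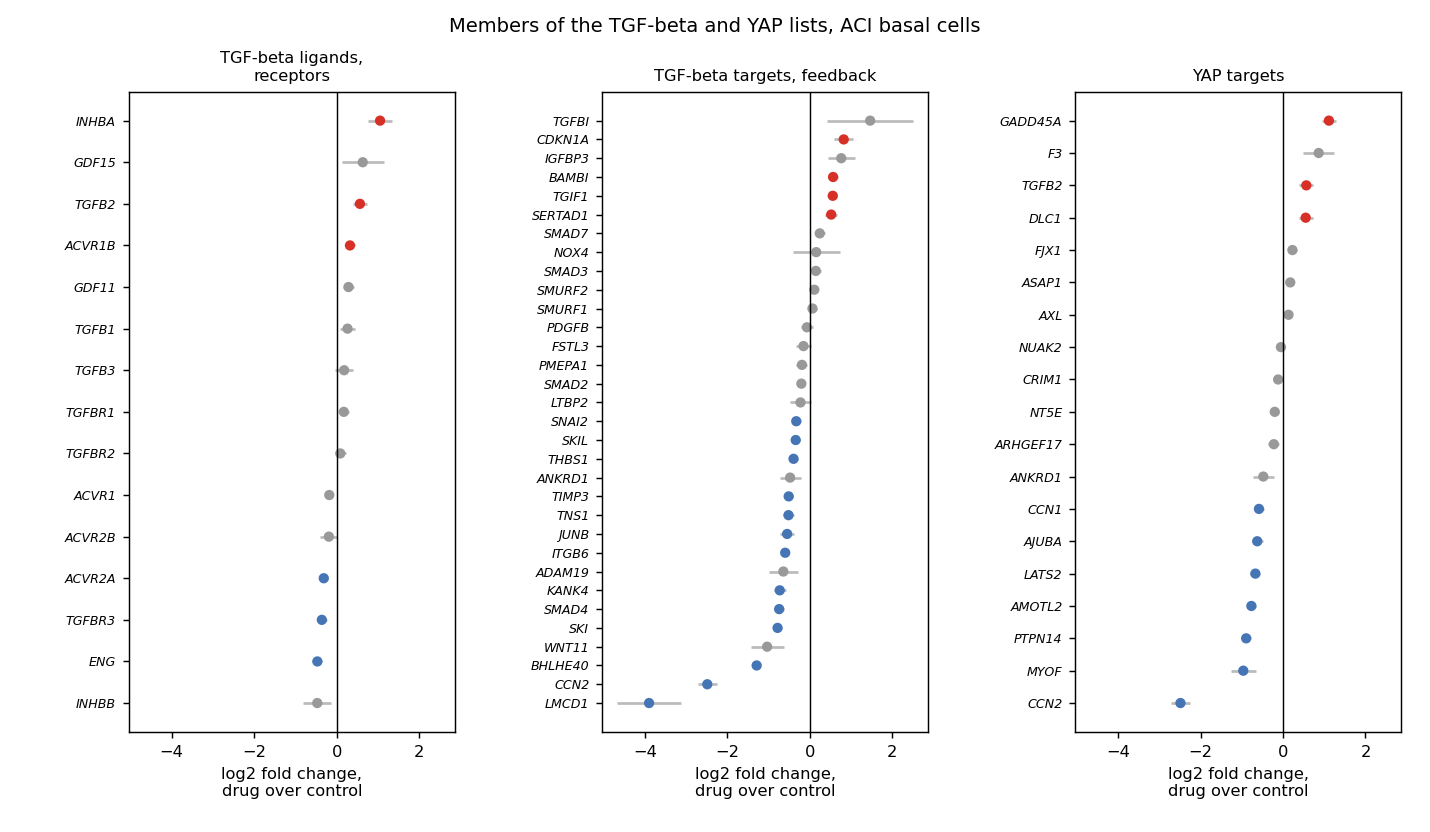
Log2 fold change with TGFBRi over vehicle (points) and a standard error derived from the F statistic of its test (lines) for the tested TGFβ ligands and receptors, TGFβ targets and feedback genes (1 target not shown) and YAP targets in basal cells, in red where called higher, blue where called lower and grey where not called. CCN2 and LMCD1 lie farthest to the left, at -2.49 and -3.90, the latter a fitted value that depends on the prior count.

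Of 19 YAP targets, 7 (36.8%) fell and 3 rose, with a median of -0.20 (12 and 1 with library sizes only, and 6 and 6 without rat 15). Besides CCN2, PTPN14, a phosphatase that holds YAP back, was at 43.3, 48.4 and 46.2 CPM in vehicle and 22.6, 26.3 and 25.5 CPM in TGFBRi rats (-0.89, SE 0.108). AMOTL2, an angiomotin that binds YAP, was at 77.1, 91.3 and 100.8 CPM and at 54.8, 53.9 and 48.8 CPM (-0.77, SE 0.112). Seen first and then chosen, CCN1 (-0.58), LATS2 (-0.67), AJUBA (-0.62) and MYOF (-0.96) were also lower. GADD45A, a growth arrest gene that stress also induces, went the other way, from 630 to 840 CPM to 1136 to 1732 CPM (1.11, SE 0.174), and TGFB2 and the GTPase-activating protein DLC1 (0.55) rose as well. ANKRD1, at 2.82 to 3.53 and 2.07 to 2.46 CPM, was not called (-0.48, adjusted p = 0.187).

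Of 28 Wnt pathway genes 13 (46.4%) fell and 1 rose, with a median of -0.48. LGR6, a receptor for R-spondins that marks progenitor cells of several epithelia, was at 21.1, 22.8 and 22.5 CPM in vehicle and at 9.41, 10.5 and 9.24 CPM in TGFBRi rats (-1.19, SE 0.127, adjusted p = 8.2e-05). Its level in every TGFBRi rat was under that of each vehicle rat by a wide margin, and 41.4% of all genes did not overlap. The Wnt receptors FZD2 (22.2 to 27.0 against 10.5 to 14.7 CPM, -0.92) and FZD7 (32.8 to 37.1 against 18.2 to 23.6 CPM, -0.74) and the Dishevelled-binding inhibitor NKD2 (14.3 to 15.9 against 6.48 to 9.63 CPM, -0.96) fell with it. The secreted antagonist SFRP1 was the 1 that rose, at 451 to 584 and 708 to 854 CPM (0.62). AXIN2, a direct target of β-catenin, was at 8.82, 15.3 and 8.30 CPM and at 13.6, 17.9 and 13.9 CPM and was not called (0.49, adjusted p = 0.141). SFRP1 and AXIN2 were chosen after their values were seen.

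Of 25 immediate early genes, which respond within minutes to stimuli and to tissue dissociation, 10 fell (40%) and 3 rose (12%), beside 17.9% and 15.5% of all genes. Without 1 rat 8 to 11 fell and 2 (without rat 16) to 5 (without rat 7 or 8) rose. FOS, a subunit of AP-1, was at 6281, 9796 and 8295 CPM in vehicle and at 3305, 4100 and 3453 CPM in TGFBRi rats (-1.17, SE 0.158). Its partner JUN was at 3837 to 5937 and 2776 to 2839 CPM (-0.84), and SOCS3, an inhibitor of cytokine signaling, at 288 to 424 and 161 to 177 CPM (-1.15). IER5 went from 43.3 to 54.2 CPM to 93.4 to 121 CPM (1.18, SE 0.119). The time from gland to sort is not given per rat, and its part in these genes was not tested.

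Of 22 contractile genes 6 rose (27.3%) and 5 fell (22.7%), beside 15.5% and 17.9% of all genes, with a median of 0.04. With library sizes only 2 rose and 9 fell (median -0.18), and without 1 rat 3 (without rat 12 or 16) to 5 rose and 3 (without rat 8 or 12) to 6 fell. OXTR, the oxytocin receptor, was at 17.01, 19.3 and 12.2 CPM in vehicle and 6.53, 8.41 and 6.07 CPM in TGFBRi rats (-1.22, SE 0.189, adjusted p = 6.1e-04). SYNPO2, an actin-bundling protein, was at 90.99 to 100.8 and 46.9 to 62.3 CPM (-0.87), and the heavy chain MYH11 at 6741 to 7640 and 5173 to 5900 CPM (-0.38). The light chains MYL9 (1679 to 1865 against 2536 to 2862 CPM, 0.61) and MYL6 (2728 to 3089 against 3966 to 4750 CPM, 0.59) rose. ACTA2, smooth muscle actin and chosen after its values were seen, was at 3311 to 4029 and 3248 to 4281 CPM and was not called (0.076, adjusted p = 0.714).

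Matrix and adhesion lists were divided. Of 24 basement membrane genes 7 fell and 3 rose, with a median of -0.029 beside -0.036 over all genes. Without 1 rat these counts ran from 2 (without rat 15) to 7 and from 0 (without rat 8) to 3, and with library sizes only they were 11 and 0. COL7A1, which anchors the basement membrane to the stroma, was at 105.3, 96.9 and 96.7 CPM and at 73.2, 81.3 and 56.1 CPM (-0.50), and the collagen IV chains COL4A6 (-0.44) and COL4A2 (-0.37) and the laminin chain LAMB1 (-0.35) were lower too. COL4A6 and COL4A2 kept their call in 3 of 6 fits without 1 rat. Of 36 interstitial matrix genes 9 fell and 2 rose, with a median of 0.078. Without vehicle rat 7, which had the highest fibroblast marker sum among vehicle rats, 7 fell and 10 rose, and over all fits without 1 rat 7 to 12 fell and 1 to 10 rose. COL16A1 (157 to 162 against 107.2 to 118 CPM, -0.49), the lysyl oxidase LOXL4 (-0.75) and the focal adhesion protein TNS1 (-0.52) fell, and BGN, a small proteoglycan, rose (104.9 to 117 against 135 to 168 CPM, 0.47). COL1A1, the main fibroblast collagen, was at 31.6, 6.64 and 0.910 CPM and at 26.8, 196 and 28.7 CPM and was not called (adjusted p = 0.287), with its highest value in TGFBRi rat 15. Among 15 integrins, with 3 lower and 1 higher (8 and 0 with library sizes only), ITGB6, ITGA9 (-0.97) and ITGB3 (-2.38, from 0.682 to 1.49 CPM to 0.138 to 0.244 CPM) fell and ITGA5 rose (0.45, a call kept in 1 of 6 fits without 1 rat). ITGB1, which encodes the sorting antigen CD29, was at 962 to 1161 and 1055 to 1281 CPM (0.17, adjusted p = 0.297). Of the junction genes, the cadherin-binding catenins CTNNB1 (94.6 to 99.6 against 51.9 to 54.04 CPM, -0.88) and CTNND1 (110 to 120 against 59.4 to 67.3 CPM, -0.86) fell, and CLDN1 (2.92) and the tight junction protein F11R (0.75) rose, in a list with 6 higher and 4 lower of 22 (4 and 8 with library sizes only). CLDN1 rested on few transcripts, with 5, 1 and 1 UMIs in vehicle and 20, 6 and 14 UMIs in TGFBRi rats.

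The largest rises included ANGPT1, a ligand of the endothelial receptor TIE2, which was at 1.74, 0.910 and 2.05 CPM in vehicle and at 13.5, 9.14 and 11.2 CPM in TGFBRi rats (2.85, SE 0.256, adjusted p = 3.5e-05). It was seen in 0.171 to 0.331% of thinned vehicle cells and 1.3 to 2.39% of thinned TGFBRi cells. HMOX1, heme oxygenase, was at 191, 271 and 86.2 CPM in vehicle and at 1187, 372 and 1293 CPM in TGFBRi rats (2.38, SE 0.718, adjusted p = 0.0865). Rat 15 lay nearest to the vehicle rats, and the call was kept in 1 of 6 fits without 1 rat. HBEGF, an EGF receptor ligand, was at 32.7, 27.8 and 6.60 CPM and at 100.6, 81.9 and 88.5 CPM (1.97, adjusted p = 0.077), also kept in 1 of 6. The hemoglobin genes HBA-A1 (0 to 0.386 CPM in vehicle, 87.7, 1.10 and 132 CPM in TGFBRi rats), HBB and HBA-A2 headed the list with calls kept in 1 of 6 fits. Their high values lay in rats 12 and 16, as did the erythrocyte marker sum, which itself includes HBB. The part of red cell RNA was not tested. SESN2, a stress sensor that inhibits mTORC1, was at 92.6, 83.99 and 39.01 CPM and at 284, 213 and 313 CPM (1.90, SE 0.376). LEXM (2.52), the casein CSN1S1 (2.37), ZBTB16 (2.14), OLAH, a thioesterase of milk fat synthesis (2.04), and FKBP5 (1.91) completed the 12, all kept in 6 of 6 except CSN1S1 with 4.

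Members of several stress-response lists rose. Of 14 genes of the integrated stress response, which the transcription factor ATF4 drives when translation is limited, 9 (64.3%) rose and none fell, against 15.5% of all genes. PHGDH, the first enzyme of serine synthesis, was at 17.2, 16.9 and 22.1 CPM in vehicle and at 52.8, 36.2 and 47.3 CPM in TGFBRi rats (1.29, SE 0.151), and PSAT1, the next enzyme, at 22.3 to 28.2 and 45.9 to 61.2 CPM (1.02, SE 0.133). HERPUD1, which helps clear misfolded proteins of the endoplasmic reticulum, was at 62.3 to 94.8 and 150 to 216 CPM (1.23), and ATF4 itself at 875 to 1040 and 1365 to 1598 CPM (0.64). The groups did not overlap in any of these 4 genes, which were picked by smallest p, beside 41.4% of all genes without overlap. Chosen after their values were seen, DDIT3 (CHOP) rose (0.99), TRIB3 was called but kept its call in 1 of 6 fits (1.77, adjusted p = 0.0863), and asparagine synthetase ASNS was not called (-0.24). With library sizes only, 7 of the 14 rose and 2 fell.

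Of 14 targets of NRF2, a transcription factor that responds to oxidative stress, 8 rose (57.1%) and none fell, and 3 rose with library sizes only. Without 1 rat 4 (without rat 7 or 16) to 11 (without rat 15) rose. Thioredoxin reductase TXNRD1 was at 221, 233 and 216 CPM and at 508, 293 and 557 CPM (1.02), highest in rats 12 and 16 as for HMOX1. PRDX1 (0.56), TXN1 (0.53) and MGST1 (0.43), all redox enzymes or their partners, rose, with the calls of PRDX1 and MGST1 lost with library sizes only. Of 14 heat shock genes 6 rose and none fell. The chaperones HSP90AB1 (2748 to 3300 against 5057 to 5294 CPM, 0.75) and HSP90AA1 (0.86), the co-chaperones BAG3 (0.92) and DNAJA1 (0.64) were among them, while HSPA1B, seen first, was at 314 to 561 CPM in vehicle and at 418, 476 and 2037 CPM in TGFBRi rats and was not called. Of 17 genes of cholesterol synthesis 8 rose and 1 fell (4 and 3 with library sizes only, 5 and 1 without rat 9 or 16). INSIG1, which retains the SREBP activator in the endoplasmic reticulum, was at 12.7 to 27.7 and 48.96 to 64.3 CPM (1.35). NSDHL fell (-0.52).

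Of 15 glucocorticoid-responsive genes 7 rose and 1 fell (6 and 3 with library sizes only). FKBP5, a co-chaperone of the glucocorticoid receptor, was at 6.55, 8.19 and 7.62 CPM in vehicle and at 33.3, 18.0 and 31.3 CPM in TGFBRi rats (1.91, SE 0.223, adjusted p = 3.9e-04). ZBTB16 (PLZF), a transcription factor that steroids induce, was at 11.5, 21.8 and 11.4 CPM and at 66.1, 45.7 and 83.5 CPM (2.14, SE 0.359). Both genes were lowest, among TGFBRi rats, in rat 15. SULT1A1, a sulfotransferase (1.58), and ERRFI1, a feedback inhibitor of EGFR (0.76), also rose, and the clock gene PER1 went from 21.5 to 25.02 CPM down to 9.38 to 11.9 CPM (-1.12). TSC22D3 (GILZ), a classical target chosen after its values were seen, was at 49.5 to 69.4 and 47.2 to 60.5 CPM and was not called (-0.13).

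Genes of translation and respiration rose more often than they fell. Of 76 ribosomal protein genes 61 (80.3%) rose and 1 fell, and their share of all UMIs was 9.76, 9.19 and 9.53% in vehicle and 13.2, 12.9 and 13.2% in TGFBRi rats. Of 73 nuclear genes of the respiratory chain 39 rose and 4 fell, for example the complex I subunit NDUFB8 (0.70), the ATP synthase subunit ATP5MC1 (0.64) and the complex III subunit UQCRH (0.63), while the complex I subunit NDUFS1 fell (-0.67). Of 13 mitochondrially encoded genes 8 rose and 1 fell (5 and 1 without rat 8 or 15), with shares of UMIs of 5.05, 5.04 and 5.97% and 5.91, 7.07 and 6.38%. With library sizes only, 50 of 76, 21 of 73 and 5 of 13 rose. The TMM factors were 1.07 to 1.09 in vehicle and 0.891 to 0.952 in TGFBRi rats.

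Among signaling receptors, 6 of 18 hormone and paracrine receptors fell and 3 rose: GHR, the growth hormone receptor, went from 91.9 to 107.5 CPM to 54.3 to 55.6 CPM (-0.86, SE 0.096), FGFR2 from 181 to 195 to 137 to 147 CPM (-0.40) and the HGF receptor MET rose from 27.1 to 35.3 to 49.6 to 58.9 CPM (0.82). EGFR fell from 78.6 to 101.7 CPM to 54.7 to 56.2 CPM (-0.70), while its relative ERBB3 rose (0.68), in a family with 3 higher and 2 lower of 14 (3 and 4 with library sizes only). Of 20 BMP and ID genes 5 rose and 1 fell, and 4 rose and 4 fell with library sizes only: ID3, a target of BMP signaling, was at 21.8, 24.3 and 8.64 CPM and at 56.3, 47.6 and 53.6 CPM (1.497, SE 0.359), while the receptor BMPR1A fell from 63.2 to 75.1 CPM to 41.2 to 42.2 CPM (-0.73). In the IGF axis (2 higher, 3 lower of 13, and 5 and 3 without rat 7) IGFBP5 fell from 3254 to 4890 CPM to 1915 to 2622 CPM (-0.77) and IGFBP2 rose from 1737 to 2172 CPM to 2487 to 3208 CPM (0.53). NOTCH1 rose (0.94) and NRARP, a Notch target, fell (-0.75) among 13 Notch genes with 2 higher and 3 lower. Of 21 basal and EMT transcription factors 4 rose (19%) and 6 fell (28.6%), with 7 and 6 without rat 7 and 4 and 3 without rat 12, among them SOX9 (149 to 181 against 274 to 302 CPM, 0.83), RUNX1 (0.79), VDR (-0.82) and NFIB (-0.53).

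Of 19 chemokines and cytokines 7 rose and 1 fell (5 and 3 with library sizes only, and 3 and 1 without rat 16): CXCL1, which attracts neutrophils, was at 561 to 766 and 958 to 1487 CPM (0.82), and CXCL12, a niche chemokine, fell from 95.6 to 156 CPM to 65.5 to 70.7 CPM (-0.75). Of 23 interferon-stimulated genes 8 rose and 2 fell, among them the antigen presentation genes B2M (0.70) and TAP1 (0.88). Of 28 neurotrophin and axon guidance genes 5 rose and 6 fell (2 and 11 with library sizes only, 4 and 3 without rat 16), with EPHA2 (40.9 to 66.98 against 134 to 160 CPM, 1.33) and NTN4, a netrin of basement membranes (6.26 to 10.9 against 2.62 to 3.05 CPM, -1.63), as examples. Of 28 proteases and inhibitors 4 rose and 4 fell, 14.3% in each direction and no more than among all genes (2 and 8 with library sizes only, 6 and 2 without rat 15), with ADAMTS1 (835 to 998 against 456 to 547 CPM, -0.81) and TIMP3 (-0.51) lower and the cystatin CST3 (0.75) higher. Claudins of luminal cells rose from low levels, CLDN4 from 2.07 to 3.19 CPM to 5.65 to 13.6 CPM (1.89), CLDN3 from 0.455 to 0.964 CPM to 2.32 to 3.05 CPM (1.78) and CLDN7 by 1.44 (a call lost with library sizes only), whereas KRT19 fell from 38.8 to 70.6 CPM to 24.0 to 34.3 CPM (-0.997). The summed level of the 7 luminal keratins and claudins, given above and scaled by library size only, overlapped between the groups. The overlap is not kept with the TMM factors used for the claudin values, which raise the TGFBRi sums against the vehicle sums. Of the 5 mature luminal markers tested 2 rose, PRLR (1.86) and CITED1 (1.53), and 1 fell, and their part in the claudin and milk genes was not tested. Of 8 milk genes 3 rose (CSN1S1, CSN3 and WAP), with 1 (without rat 9 or 16) to 4 rising when 1 rat was left out. WAP rested on 0, 2 and 1 UMIs in vehicle and 3, 3 and 7 UMIs in TGFBRi rats and kept its call in 2 of 6 such fits, and CSN3 in 4.

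**Figure D3:**
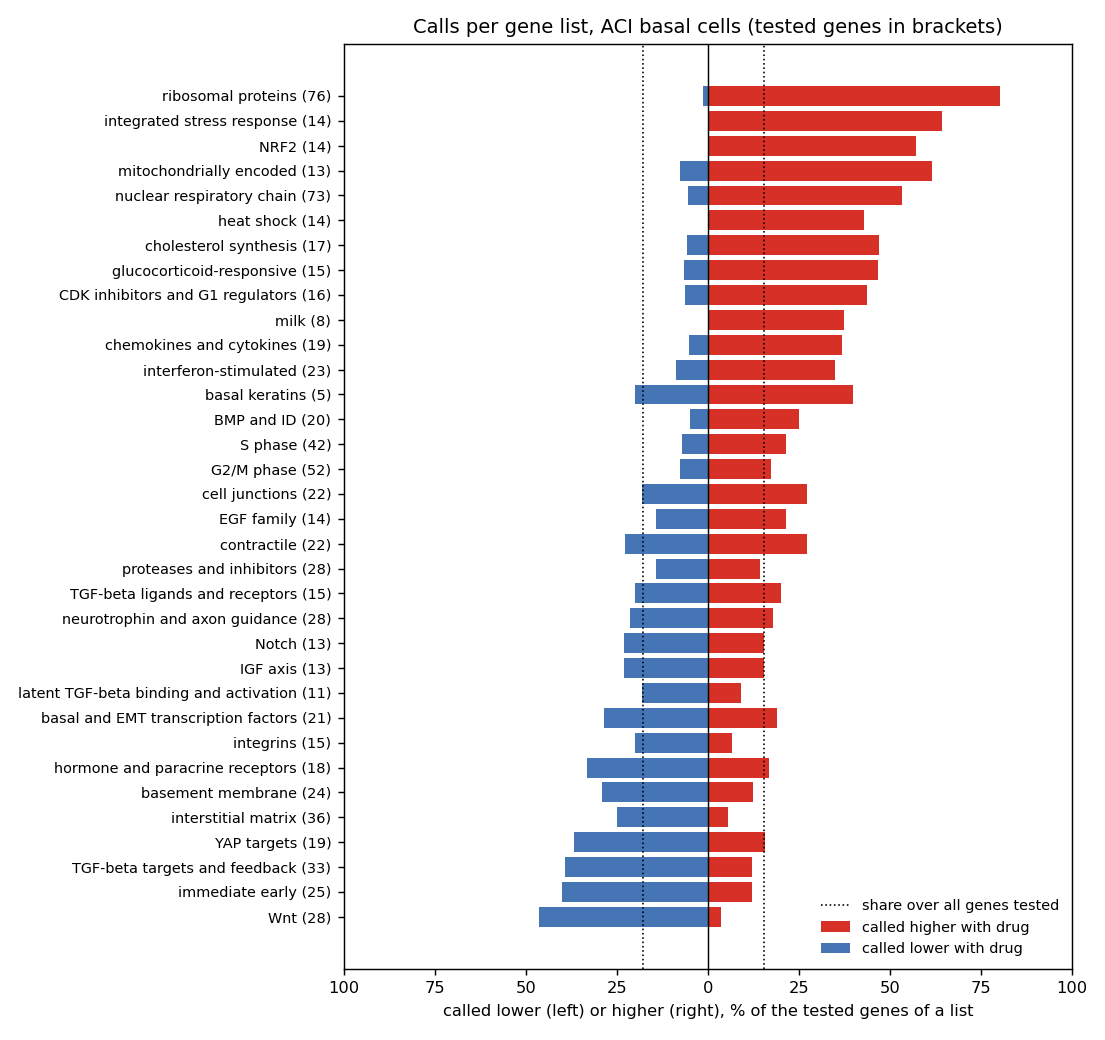
Share of the tested genes of each list called higher (right) or lower (left) with TGFBRi in basal cells, with the number of tested genes in brackets and dotted lines at the shares over all genes (15.5% higher, 17.9% lower). Ribosomal proteins (61 of 76 higher) and the integrated stress response (9 of 14) lie at one end. Wnt genes (13 of 28 lower), immediate early genes (10 of 25 lower) and TGFβ targets (13 of 33 lower) lie at the other.

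Of the 4 markers that define the cells, KRT14 and TP63 fell, and KRT5 and MME were not called. With library sizes only 3 of the 4 were called lower, and without 1 rat 1 (without rat 8, 12 or 16) to 4 (without rat 9). KRT14 was at 518, 575 and 535 CPM in vehicle and at 443, 441 and 426 CPM in TGFBRi rats (-0.31, SE 0.097, adjusted p = 0.0289). TP63 was at 121, 153 and 209 CPM and at 89.6, 113 and 103.4 CPM (-0.66, SE 0.190, adjusted p = 0.0364). Neither overlapped between the groups, beside 41.4% of all genes without overlap. KRT14 kept its call in 5 and TP63 in 4 of 6 fits without 1 rat. KRT5, at 1061, 1257 and 849 CPM and at 889, 813 and 895 CPM, overlapped and was not called (-0.29, adjusted p = 0.13), and neither was MME, at 262, 163 and 121 CPM and at 140, 117 and 127 CPM (-0.51, adjusted p = 0.274). KRT17 (2910 to 3769 against 4516 to 5479 CPM, 0.52) and KRT16 (4.89 to 5.73 against 9.75 to 18.7 CPM, 1.51), keratins of activated epithelium, rose.

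The share of cells with a transcript was measured on 9226 cells thinned to 2000 UMIs, which left out 12 to 135 shallower cells per rat. With 3 rats against 3, the exact two-sided permutation test cannot give a p under 0.1. KRT5 had a UMI in 84.5, 87.0 and 76.9% of vehicle cells and in 70.5, 70.3 and 69.1% of TGFBRi cells (means 82.8 ± 5.23% and 69.95 ± 0.782%, SD, n = 3, exact p = 0.1). KRT14 was seen in 59.3, 60.4 and 57.2% and in 50.1, 50.6 and 46.7% of cells, and TP63 in 23.4, 26.7 and 35.9% and in 16.2, 17.8 and 14.4% (exact p = 0.1 for both). The groups did not overlap in these 3 genes, whereas MME, with 25.2, 14.8 and 12.7% and 15.2, 13.8 and 10.97%, overlapped (exact p = 0.5). At full depth KRT14 overlapped, with 91.1, 78.3 and 77.95% in vehicle and 81.5, 78.3 and 72.1% in TGFBRi rats (exact p = 0.6), so that its separation depended on the thinning, while KRT5 and TP63 stayed apart. The full-depth means were 94.96 and 89.5% for KRT5, 82.4 and 77.3% for KRT14, 59.8 and 42.3% for TP63 and 33.9 and 29.3% for MME. CCN2 was seen in 66.6, 74.6 and 70.8% of vehicle cells and in 32.1, 24.4 and 22.9% of TGFBRi cells, beside 0.169 to 1.41% of luminal cells. HMOX1 was seen in 11.5 to 29.1% and 36.4 to 65.2%, FILIP1L in 15.3 to 18.3% and 5.51 to 6.35%, LGR6 in 4.19 to 4.97% and 1.16 to 1.54% and OXTR in 2.91 to 4.49% and 0.812 to 1.72%, each with exact p = 0.1. CCN2, HMOX1, FILIP1L, LGR6 and OXTR were chosen among genes already called on the sums of the same rats. Their shares and p-values are therefore not separate evidence. LGR6 was in no thinned luminal cell, and OXTR in at most 0.302%.

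**Figure D4:**
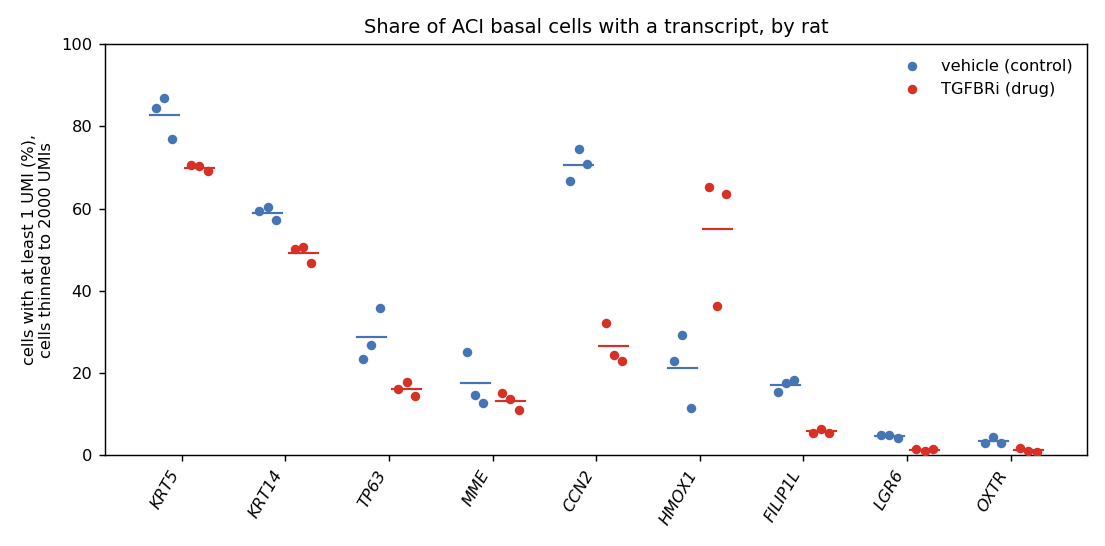
Share of basal cells with at least 1 UMI of a gene after thinning each cell to 2000 UMIs, with 1 point per rat (3 vehicle, 3 TGFBRi) and a bar at the group mean. CCN2 goes from 66.6 to 74.6% of cells in vehicle rats to 22.9 to 32.1% in TGFBRi rats, and MME is the only gene shown whose groups overlap. CCN2, HMOX1, FILIP1L, LGR6 and OXTR were chosen among genes called on the sums of the same rats.

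MKI67 and the shares of cells with cell cycle transcripts gave no group difference beyond the spread. MKI67, made by dividing cells, was at 82.8, 33.9 and 53 CPM in vehicle and at 68.1, 77.4 and 39.01 CPM in TGFBRi rats (log2 0.11, adjusted p = 0.888). It was seen in 1.43 to 2.98% and 1.3 to 3.89% of thinned cells (exact p = 0.6). At least 2 UMIs of G2/M genes were found in 62.2 ± 2.17% of thinned vehicle cells and 62.95 ± 1.08% of TGFBRi cells (exact p = 0.7), a threshold that most cells pass and that therefore does not pick out dividing cells. Of 52 G2/M genes 9 rose and 4 fell, with 5 (without rat 12) to 15 (without rat 7) rising when 1 rat was left out and 4 rising and 5 falling with library sizes only. Of 42 S phase genes 9 rose and 3 fell, with 5 (without rat 12) to 8 rising without 1 rat. With library sizes only 5 were higher and 9 lower, beside 1072 higher and 4769 lower over all genes in that setting. Geminin (GMNN), an inhibitor of replication licensing, was at 12.6 to 21.9 and 37.0 to 55.4 CPM (1.36), and CKS1B, a cofactor of cyclin-dependent kinases, at 65.97 to 71.1 and 115 to 129 CPM (0.87). Of 16 CDK inhibitors and G1 regulators 7 rose and 1 fell, against 4 and 5 with library sizes only, and 4 rose without rat 12 or rat 16. CDKN2C (p18) was at 4.77 to 5.37 and 10.3 to 12.8 CPM (1.18) and the p53 regulator MDM2 at 277 to 404 and 588 to 704 CPM (0.86), while RB1 fell from 42.6 to 49.02 CPM to 31.4 to 35.7 CPM (-0.43).

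The spread among cells of 1 rat was measured gene by gene. Over 2471 genes with at least 0.1 UMI per thinned cell, the variance among cells was compared with that of Poisson counting. Ordered by the median of the ranks in the 6 rats, FOS came first, with ratios of 12.1 to 16.9, though not in every rat. It was followed by CXCL1 (9.83 to 14.6), the monocyte attractant CCL2 (4.99 to 9.35), FOSB (4.87 to 13.8), the lipid carrier APOE (6.42 to 7.84), BTG2 (5.27 to 8.15) and JUN (5.80 to 8.44). An unnamed gene also ranked among the 15 highest. The keratins KRT17 (4.97 to 7.82) and KRT15 (4.00 to 7.91), IGFBP5 (3.89 to 9.75), the chemokine CXCL14 (3.83 to 7.34), the pentraxin PTX3 (4.70 to 6.78), ATF3 (3.93 to 7.05) and CCN2 (2.67 to 6.28) completed the set. For IGFBP5, the 3 vehicle rats (7.56 to 9.75) lay above the 3 TGFBRi rats (3.89 to 5.63), whose mean level was also lower. CCN2 had ratios of 5.18, 6.28 and 6.25 in vehicle and of 5.11, 2.73 and 2.67 in TGFBRi rats. Its mean was 2.97, 4.19 and 3.97 UMIs per thinned cell in vehicle and 0.771, 0.459 and 0.424 in TGFBRi rats. The part of the mean level in these ratios and in their order was not tested.

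The response of basal cells differed from that of luminal cells of the same rats in a small set of genes. In luminal cells alone edgeR called 3400 of 13752 genes (24.7%). The difference between both effects was tested in 1 model of 12 samples with the rat as a block, and 368 of 15143 genes (2.43%) passed, 169 (1.12%) with a more positive and 199 (1.31%) with a more negative effect in basal cells. Without the block 67 passed. ANGPT1 was at 13.4 to 27.8 CPM in luminal vehicle and 20.9 to 29.3 CPM in luminal TGFBRi samples, and its effect was higher in basal cells by 2.57 on the log2 scale (SE 0.282, adjusted p = 0.00101). In basal cells it rose from a lower level, without reaching the level of any luminal TGFBRi sample. MDFIC, an inhibitor of MyoD family factors, was at 120 to 143 and 225 to 264 CPM in basal and at 177 to 220 and 151 to 176 CPM in luminal vehicle and TGFBRi samples (difference 1.18). Its relative MDFI (1.27), the homeobox gene IRX5 (1.04) and FAM184A (1.27) differed in the same direction.

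In the other direction, FILIP1L was at 4.46 to 5.23 CPM in luminal vehicle and 3.94 to 5.46 CPM in luminal TGFBRi samples, and its fall in basal cells differed from that by -1.67 (SE 0.196, adjusted p = 0.00101). HS3ST6 was at 6.62 to 10.2 and 8.88 to 13.04 CPM in luminal cells of vehicle and TGFBRi rats, so that its near loss was found in basal cells alone among these fractions (difference -6.51, a fitted value that depends on the prior count). RCAN1, a calcineurin inhibitor, was at 27.9 to 44.5 and 26.3 to 30.7 CPM in basal and at 21.4 to 29.7 and 69.8 to 91.02 CPM in luminal cells (-1.99, SE 0.148). The kinase WEE1, which delays mitosis (-1.18), and the death-associated kinase DAPK2 (-2.24) were lower with TGFBRi in basal and higher in luminal cells. For CCN2, whose luminal log2 fold change was -1.25 (adjusted p = 0.112), the difference of -1.17 did not pass (adjusted p = 0.375).

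**Figure D5:**
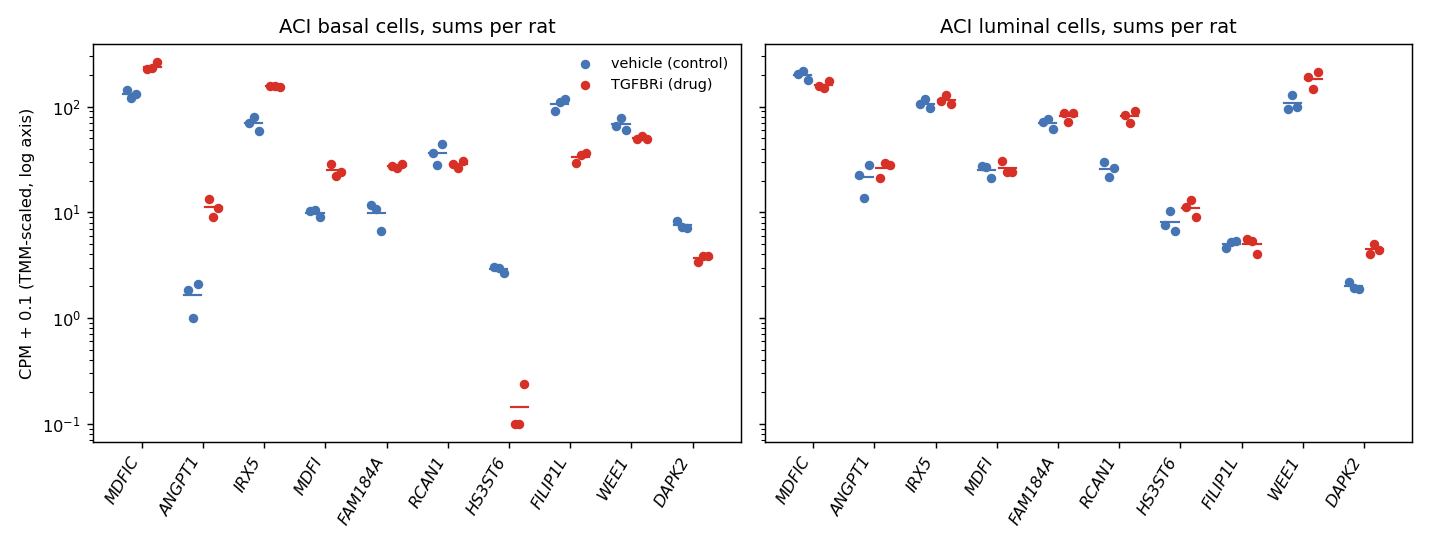
Levels of the 10 named genes whose response to TGFBRi differed between basal (left) and luminal (right) cells of the same 6 rats, as TMM-scaled CPM plus 0.1 on a log axis, with 1 point per rat and a bar at the group mean. HS3ST6 is at 2.58 to 2.97 CPM in basal cells of vehicle rats and at 0 to 0.136 CPM in those of TGFBRi rats, and at 6.62 to 13.04 CPM in all luminal samples.

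The response was also compared with that of basal cells of SD rats. In SD basal cells edgeR called 3797 of 14489 genes (26.2%). The difference in effect between the strains passed in 33 of 14779 genes (0.223%), with 1863 at an unadjusted p under 0.05. The count was 181 with DESeq2 and ran from 6 to 148 without 1 rat (148 without SD TGFBRi rat 14), and strain, age at treatment and experiment cannot be told apart. BCL2L11 (BIM), a promoter of apoptosis, was at 52.1 to 53.7 CPM in ACI vehicle and 88.5 to 96.1 CPM in ACI TGFBRi rats, but at 121 to 226 and 46.9 to 74.1 CPM in SD rats (difference 2.25, SE 0.290, adjusted p = 0.00323). Hexokinase HK2 was at 82.5 to 128 and 240 to 262 CPM in ACI and at 624 to 1404 and 262 to 664 CPM in SD rats (2.59). SUSD6 (2.42) showed the same crossing, with SD vehicle rats highest. SEC61A2 (2.24) and HMGB3 (2.85) were not called in ACI rats and were lower with TGFBRi in SD rats.

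Of the 2 genes with a more negative effect in ACI rats, KRT79 was at 3.23 to 5.10 and 1.62 to 2.54 CPM in ACI and at 0.789 to 3.44 and 4.76 to 21.0 CPM in SD rats (-3.65, adjusted p = 0.0677). LMCD1 was at 0.690 to 1.66 CPM in ACI vehicle, 0 to 0.122 CPM in ACI TGFBRi, 1.01 to 3.13 CPM in SD vehicle and 2.28 to 6.37 CPM in SD TGFBRi rats (-4.52, adjusted p = 0.0747), the last again a fitted value that depends on the prior count. Both calls were lost whichever ACI rat was left out. CCN2 was lower in SD basal cells too (-1.58, adjusted p = 0.0118), as were BHLHE40 (-2.18) and IGFBP5 (-2.07), and among the basal markers KRT14 (-0.90, adjusted p = 0.05998) and TP63 (adjusted p = 0.0238) were lower there and KRT5 higher (0.58, adjusted p = 0.0867). None of the basal markers passed the test of the strain difference (adjusted p = 0.338 for KRT5). FKBP5 (0.18) and ZBTB16 (-0.20) were not called in SD rats, and the strain difference was not called for either.

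Bulk RNA-seq of basal cells sorted from other ACI rats on day 0 gave values for the same genes after amplification from pooled cells. In bulk, fewer cells of a type and less RNA per cell cannot be told apart. limma called 523 of 15643 genes (3.34%) at an adjusted p of 0.05, 392 (2.51%) higher and 131 (0.837%) lower. The split turned to 30 higher and 46 lower with edgeR on recovered reads and to 33 and 37 without drug sample 2, whereas it was 928 and 192 with log2(value + 5) and 2530 and 219 without drug sample 3. The median log2 difference of all genes was 0.30. CCN2, listed as CTGF, had deposited values of 11260, 13850 and 10810 in vehicle and 4396, 7043 and 3513 in TGFBRi rats (-1.32, adjusted p = 0.0692), without overlap and short of the threshold. KRT5 had 21990, 22130 and 16840 against 9412, 9677 and 4474 (-1.44, adjusted p = 0.0245) and KRT14 54270 to 83070 against 18080 to 45060 (-1.25, adjusted p = 0.0762). In the integrated stress response list 3 of 14 genes were lower and none higher in bulk, opposite to their direction in single cells: PSAT1 had 1555 to 1993 against 381 to 707 (-1.82, adjusted p = 0.00693), PHGDH 1315 to 1797 against 346 to 765 (-1.52, adjusted p = 0.044) and TRIB3 1164 to 1758 against 348 to 550 (-1.69, adjusted p = 0.0345). Among other lists with more rises than falls in single cells, the bulk medians, with few or no calls, were -1.36 for ribosomal proteins (0 of 69 called) and -1.60 for the respiratory chain (1 of 67 called, lower). They were -0.86 for G2/M, -0.26 for S phase and for NRF2, -0.22 for cholesterol synthesis and -0.084 for chemokines and cytokines. Milk genes were at 1.35, glucocorticoid-responsive genes at 0.32 and heat shock genes at 0.16 (none called), beside 0.30 over all genes. IGFBP2 had 42990 to 64080 against 3104 to 16380 (-2.59, adjusted p = 0.0518), MYL9 40440 to 45980 against 6678 to 27880 (-1.62, adjusted p = 0.189) and KRT17 24510 to 56780 against 9581 to 21130 (-1.32, adjusted p = 0.108), without overlap and not called. PMEPA1 was called lower in bulk (4965 to 8898 against 1448 to 2688, -1.73, adjusted p = 0.0273). TRIB3 and PMEPA1 were chosen after their values were seen. Lists with more falls than rises in single cells had few bulk calls. Of 18 YAP targets 1 was higher and 0 lower, of 24 Wnt genes 0 and 1, and of 31 TGFβ targets and feedback genes 1 and 1. Of 25 immediate early genes none was called. Their bulk medians were -0.077, -0.13, -0.18 and 0.30, beside 0.30 over all genes. HMOX1 (-0.33, adjusted p = 0.611) and SESN2 (-0.58, adjusted p = 0.562), among the largest rises in single cells, were not called in bulk, and neither were FKBP5 (0.93) and ANGPT1 (1.08). Besides CCN2, most of the 12 largest falls with a bulk value were positive there: ZKSCAN8 (1.47), ZFP37 (0.81), KCNJ2 (0.59), NIF3L1 (0.54), PPP1R13B (0.33) and KRT80 (0.21). SEMA7A was negative (-1.92), and none of these genes was called in bulk. FILIP1L, ZFP113, COLGALT2 and UNK had no bulk value.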

How the data were processed

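Each sample was the sorted basal or luminal cells of 1 rat, grouped by strain, fraction and treatment from the labels. The deposited single-cell tables hold raw UMI counts per gene and cell, which the authors made from 10x Chromium 3′ v3 libraries with Cell Ranger 4.0.0 and rn6 and had filtered with Seurat (4.0.0 in the processing notes; the methods name a later version) on genes per cell, mitochondrial reads, PTPRC and keratin reads, taking out cells that clustered with the other sorted fraction. The deposited bulk values are a signal per gene, reads that the authors aligned with STAR 2.5.1b, counted with HTSeq and divided by DESeq2 1.30.1 size factors. In 100% of bulk values whole reads could be recovered (tolerance 0.01), 4194912 to 18781674 reads per day 0 sample.

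UMI counts of the cells kept by the rule were summed per rat, symbols being matched without regard to case. Genes with at least 10 counts were tested by the edgeR 4.0.16 quasi-likelihood test with TMM factors, p-values being adjusted by Benjamini-Hochberg over all tested genes and called at 0.1 or less. Basal and luminal samples came from the same animals, and their deviations from the group means correlated within each rat (r 0.119 to 0.201 over 12386 genes), so the rat was a block in models with both fractions. Differences between strains or fractions were interaction terms. The SE given with edgeR values is the absolute log2 fold change divided by the square root of the F statistic. It is an approximation, least certain for genes with few UMIs. CPM of a comparison were scaled with its own TMM factors, so they differ slightly between comparisons. Summed CPM of the markers of other cell types were scaled by library size only. Bulk values, 18 samples of 3 days in 1 model (1 day 7 sample is a control by its title and a treated animal by its description, was kept as control and enters only the shared spread), were tested as log2(value + 1) by limma 3.58.1 over genes summing to at least 10, with an adjusted p of 0.05 or less. Folds of low genes are understated on this scale. p-values rest on the spread between 3 rats per group. Shares used exact two-sided permutation tests over rats. Doublets were not removed in the values given. Scrublet served as an alternative, leaving out the 6% of cells with the highest scores. Intervals for ratios of UMIs are exact, at 95%.

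The members and the 46 gene lists were chosen with earlier results of these data known, and some lists hold genes the study itself picked out. Named genes were the 12 called genes per direction with the largest fold changes, groups that did not overlap and a mean of at least 20 UMIs per rat, up to 4 called members per list by p, the 4 basal markers, the 10 per direction between fractions, the 5 per direction by p for differences in effect and the 15 for spread. Ribosomal, mitochondrial and unnamed genes were counted but not named. A few other genes that the rule names are counted but not reported here. Alternatives were DESeq2 1.42.0, other scalings, filters and cell selections, thinning, no replicate block and leaving out each rat, and the fits were tested on simulated data. Computations ran in R 4.3.3 and in Python 3.11.15 with scanpy 1.11.5, matplotlib 3.10.9, pandas 2.3.3, scipy 1.17.1 and numpy 2.4.6. Library sizes only, reads recovered from bulk values and leaving out that day 7 sample were alternatives added after seeing the data.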

Additional observations from a re-analysis of the deposited data

Results flagged for a closer look

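The response to TGFBRi differed between ACI and SD basal cells in 33 genes and between ACI basal and luminal cells in 368 genes, each by an edgeR test of the difference in effect itself. Between the strains the named log2 differences were 2.25 for BCL2L11, 2.42 for SUSD6, 2.59 for HK2, 2.24 for SEC61A2 and 2.85 for HMGB3, and -3.65 for KRT79 and -4.52 for LMCD1. Between the fractions they were 1.18 for MDFIC, 2.57 for ANGPT1, 1.04 for IRX5, 1.27 for MDFI and 1.27 for FAM184A, and -1.99 for RCAN1, -6.51 for HS3ST6, -1.67 for FILIP1L, -1.18 for WEE1 and -2.24 for DAPK2. A positive value is a more positive effect in ACI basal cells. Levels in every group stand with the comparisons above.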

How the results depend on the processing

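Of 161 named genes, 159 were called, 114 of them under all 16 alternatives run for the drug comparison. 12 genes had no value in some alternatives (25 values). In the other 2551 values, 2432 kept direction and side of the threshold, 116 lost the call, 3 gained it and 0 reversed. The 4648 drug calls became 3313 with thinned cells, 3795 with DESeq2, 3366 to 4221 without 1 rat and 5841 with library sizes only, where 18.4% were higher against 46.4%. Leaving out TGFBRi rat 12 gave the lowest of these counts without a rat.

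The 33 strain differences became 181 with DESeq2 and 6 to 148 without 1 rat: 6 without ACI rat 9, ACI rat 16 or SD control rat 1, 81 without SD control rat 2, 148 without SD TGFBRi rat 14, 50 and 59 without SD TGFBRi rats 9 and 10 and 13 without SD control rat 3. Without ACI rat 7, 8, 12 or 15 the count was 7 to 12. The 368 fraction differences became 211 with DESeq2 and 81 to 398 without 1 rat, with 81, 129, 175 and 243 without rats 16, 12, 7 and 15. Without the replicate block, which pairs the fractions of a rat, there were 67, and with upper-quartile factors 375, of which 60.8% were more positive in basal cells against 45.9%. Basal against luminal calls ran from 4702 to 5794, the latter without the block.

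The 523 bulk calls became 76 with edgeR on recovered reads, 1120 with log2(value + 5), 537 without the filter, 532 without the day 7 sample with conflicting labels and 70 to 2749 without 1 sample, with 70 and 2749 without drug samples 2 and 3, 180 without drug sample 1 and 75 and 76 without control samples 1 and 2. The cycle share difference of 0.718 points was -0.472 at full depth, -0.228 without vehicle rat 9, and -0.228 to 1.90 without 1 rat. Other marker share differences without 1 rat were -10.7 to -8.62 (KRT14), -15.8 to -10.8 (KRT5), -15.2 to -8.92 (TP63) and -6.70 to -0.402 points (MME, the last without vehicle rat 7). Causes of these shifts were not tested. With 3 rats per group and 4235.5 to 9610 UMIs per cell at the median, genes with few UMIs are the least certain.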
